A study of Mus musculus with 30 samples.

Results

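The respiratory chain is the set of protein complexes in the inner mitochondrial membrane that passes electrons from NADH and succinate to oxygen and pumps protons as it does so. The genes described here were the rows of the RNA count tables whose symbols began with Nduf followed by a, b, c, s or v, with Cox followed by a digit from 4 to 8, or with Uqcr, together with Sdha, Sdhb, Sdhc and Sdhd, without Cox6a2. They were 74 of the 24459 genes in the tables, and all 74 were protein-coding genes in RefSeq. By complex, 7 were core and 29 accessory subunits of complex I, 7 were assembly factors of complex I rather than subunits of it, 4 belonged to complex II, 8 to complex III and 19 to complex IV. Ndufa4 and Ndufa4l2 carry a complex I name and were counted with complex IV, of which Ndufa4 is a subunit.

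The mice were C57BL/6 animals whose Ikzf3 gene, which encodes the zinc finger factor Aiolos, carried the G158R change. Homozygous (Ikzf3m/m), heterozygous (Ikzf3+/m) and wild-type (WT, Ikzf3+/+) animals were compared at a pair of bone marrow stages, with 3 libraries in each of the 6 groups and 18 in all. The labels do not give the animals' ages or which animals the replicates came from, so p-values measure the spread between these samples. Pre-B cells were sorted as B220+ AA4.1+ CD24+ cells without IgM or CD43, and the earlier pre-pro B cells as B220+ AA4.1+ CD43+ cells without IgM or CD24. Regions bound by Aiolos and by Ikaros, the related factor encoded by Ikzf1, came from chromatin immunoprecipitation (ChIP) in homozygous and WT cells. Those cells were thymocytes, or B220+ IgM- marrow cells cultured with Flt3L, IL-7 and SCF on a layer of the stromal line Tst-4, and there was 1 library for each antibody, genotype and cell type.

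Complex I takes electrons from NADH, complex II from succinate in the citric acid cycle, complex III passes them to cytochrome c, and complex IV hands them to oxygen. Most subunits are encoded in the nucleus, and the complexes also hold subunits encoded in mitochondrial DNA, for which the count tables had no rows. Developing B cells pass from slowly dividing early progenitors through a phase of rapid division before they rest as small pre-B cells, and their use of mitochondria changes on the way. The nuclear factors NRF1, the ETS-family factor GABP and YY1 are known to act at many promoters of these genes.

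The libraries held 1888871 to 9048055 reads counted in genes, and 0.282% to 0.332% of those fell in respiratory chain genes. Homozygous pre-pro B libraries were deeper than WT ones, at 8592557 to 9048055 against 5443344 to 6492192 counts. Homozygous pre-B replicate 3 stood apart, with the lowest depth of the 18 libraries, a proliferation marker sum of 7383 counts per 1e6 counts (CPM) and a B lineage marker sum of 5628 CPM. B lineage markers summed to 3144 to 5628 CPM in pre-B libraries and 312 to 582 CPM in pre-pro B libraries. Plasmacytoid dendritic cell markers summed to 3516 to 5689 CPM in pre-pro B libraries and 547 to 718 CPM in pre-B libraries, so the cells sorted as pre-pro B also carried another lineage's markers. Proliferation markers summed to 3084 to 7383 CPM in pre-B and 548 to 1574 CPM in pre-pro B libraries. The part of these marker differences in the results was not tested, and in sorted bulk RNA fewer cells of a type and less RNA per cell cannot be told apart.

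Of the 74 genes, 68 passed the filter on low counts in each fit. Cox4i2, Cox7b2, Cox8b, Cox8c, Ndufa4l2 and Ndufs5 did not. Cox8c, a testis isoform, was at 0 counts in every library. Ndufs5, an accessory subunit of complex I, had counts in 1 library, and the reference holds a copy named Ndufs5-ps. Copies that can share reads were also named for Cox5b, Cox6c, Cox7c, Ndufa11, Ndufa12, Ndufab1, Ndufs6 and Uqcrh, and the counts of these genes are uncertain for that reason. Another gene's locus overlapped 22 of the 74, among them Ndufa1 (Rnf113a1), Ndufa13 (Tssk6), Ndufs1 (Ino80dos), Ndufv2 (Ankrd12) and Uqcrc2 (Pdzd9). The sources used here do not give whether reads were counted by strand, so reads of such pairs may not be told apart.

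Summed over all 74 genes, the group means lay between 2912 and 3356 CPM. The sum was 3356 ± 360 CPM in homozygous, 3151 ± 149 CPM in heterozygous and 3136 ± 11.6 CPM in WT pre-B cells (SD, n = 3 each). In pre-pro B cells it was 2912 ± 33.5 CPM in homozygous, 2994 ± 247 CPM in heterozygous and 3167 ± 82.3 CPM in WT cells (SD, n = 3 each). CPM here is a gene's share of the counts in genes, adjusted by the trimmed mean of M values (TMM), and was compared only within a gene or a fixed set of genes across libraries.

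The widest spread within a group was that of complex IV. Its 19 genes summed to 530, 545 and 862 CPM in the homozygous, 519, 639 and 536 CPM in the heterozygous and 540, 552 and 550 CPM in the WT pre-B libraries. In pre-pro B cells the sums were 462, 458 and 453 CPM in the homozygous, 599, 462 and 444 CPM in the heterozygous and 567, 524 and 513 CPM in the WT libraries. The 3 values farthest above their groups came from homozygous pre-B replicate 3, heterozygous pre-B replicate 2 and heterozygous pre-pro B replicate 1, which were the shallowest library of each of those groups. In pre-pro B cells, all 3 homozygous sums lay below all 3 WT sums for every complex, and above them for the assembly factors of complex I.

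**Figure D1:**
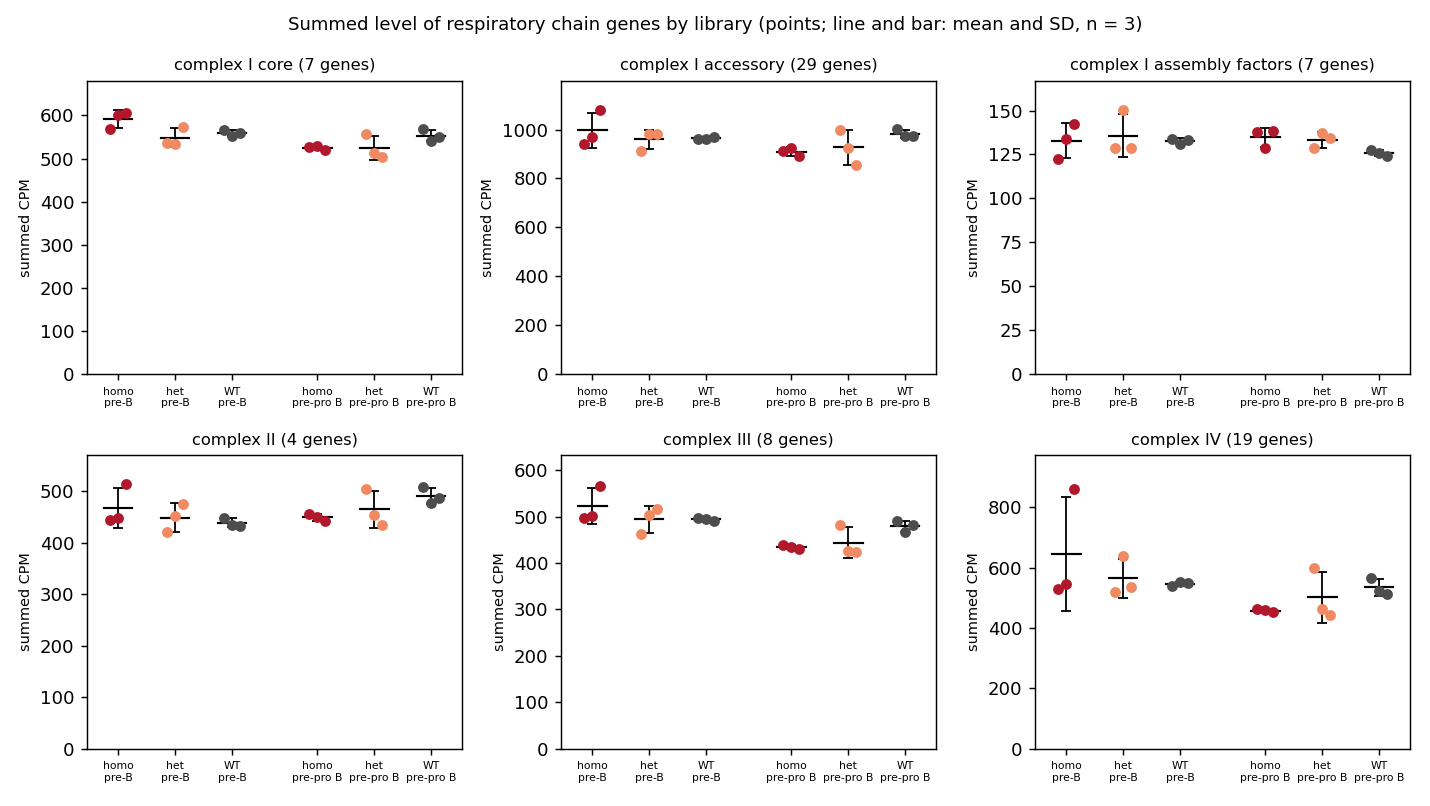
Summed CPM of the genes of each complex (vertical axis) in every library, by genotype and stage (horizontal axis), with the mean as a line and the SD as a bar (n = 3). Complex IV shows the point at 862 CPM from homozygous pre-B replicate 3, and in pre-pro B cells the homozygous points lie below the WT points in each panel other than the assembly factors.

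Raw counts were set beside depth for complex IV and core complex I genes. Homozygous pre-B replicate 3 had 0.304 times the depth of replicate 1 of its group, and the median count ratio was 0.266 for the 7 core complex I genes and 0.409 for the complex IV genes. Heterozygous pre-pro B replicate 2 had 1.87 times the depth of replicate 1, and the median count ratio was 1.56 for complex IV. Heterozygous pre-B replicate 2, at 0.717 of the WT mean depth, had core complex I counts at 0.612 and complex IV counts at 0.756 of the WT mean, and there complex IV lay closer to depth. Between the pre-pro B groups, depth was 1.48 times as high in homozygous as in WT libraries, and the median count ratio was 1.46 for core complex I and 1.36 for complex IV genes. Fits with library size as a term were made as an alternative, and their values for named complex IV genes are given with the homozygous stage comparison.

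**Figure D2:**
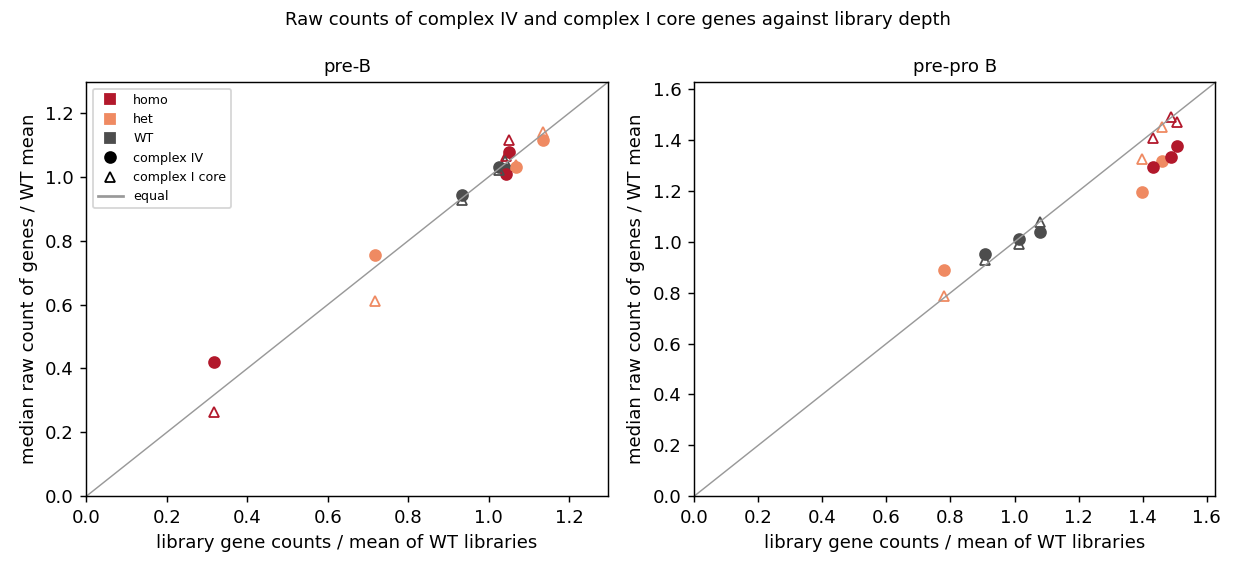
Count relative to the WT mean of the same stage against depth relative to that mean, for the median complex IV gene and the median core complex I gene of each library, with the line where both are equal. Homozygous pre-B replicate 3, at 0.317 of the WT depth, has core complex I counts at 0.264 and complex IV counts at 0.420 of the WT mean.

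The stage comparison asked how the genes differed between pre-B and pre-pro B cells within a genotype. Differences were small in all 3 genotypes, and 5 genes were called higher and 2 lower in every genotype. In homozygous cells 21 of 68 genes were higher and 4 lower in pre-B than in pre-pro B cells, by edgeR's quasi-likelihood test with Benjamini-Hochberg adjustment over all genes tested and a threshold of 0.05. Over all genes tested in homozygous cells, 32.7% were higher and 36.4% lower. In heterozygous cells 13 of the 68 were higher and 3 lower, beside 32.4% and 35.8% of all genes. In WT cells 9 of the 68 were higher and 6 lower, beside 31% and 33.3% of all genes. In homozygous cells the share that was higher lay near that of all genes. In WT cells the median size of the log2 difference was 0.17 for the 68 genes and 0.60 for all genes.

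The median log2 difference of the 68 genes between pre-B and pre-pro B cells was 0.17 in homozygous, 0.08 in heterozygous and 0.04 in WT cells, beside -0.05, -0.03 and -0.01 for all genes. With relative log expression size factors in place of TMM, 6 were higher and 10 lower in WT cells, beside 29% and 34.8% of all genes. With a term for library size the median was 0.034 in homozygous cells, and with relative log expression it was -0.0047 in WT cells. The library size term left 7 genes higher and 6 lower in homozygous cells, and 14 and 10 in WT cells. Over all genes it left 29.3% higher and 32.7% lower in homozygous cells, and 35.2% and 36.3% in WT cells. Without the 2 shallowest pre-B libraries (homozygous replicate 3 and heterozygous replicate 2), 19 were higher and 6 lower in homozygous cells, and 16 and 9 in WT cells. The all-gene shares without them were 34.7% and 37.4% in homozygous cells, and 37.2% and 36.7% in WT cells.

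Genes higher in pre-B cells of all 3 genotypes were Ndufs1, Ndufa10, Ndufa11, Ndufb8 and Cox6b1, out of 27 that were higher in any genotype. How many of all genes were called alike in all 3 genotypes was not counted. Ndufs1 encodes the largest core subunit of complex I, which carries iron-sulfur clusters in the arm that binds NADH. Its level was 113, 123 and 175 CPM in homozygous pre-B cells, against 90.9, 94.1 and 96.7 CPM in homozygous pre-pro B cells. In WT cells it was 117, 105 and 110 CPM in pre-B and 89.9, 88.6 and 92.8 CPM in pre-pro B libraries. The stages did not overlap in either genotype, and the log2 difference was 0.52 ± 0.12 in homozygous, 0.44 ± 0.12 in heterozygous and 0.29 ± 0.12 in WT cells (SE; edgeR adjusted p = 0.000923, 0.00287 and 0.0365). The WT call of Ndufs1 was lost in 8 of 15 alternatives.

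Ndufa10, Ndufa11 and Ndufb8 are accessory subunits of the membrane arm of complex I. Ndufa10 was at 91.8, 99.6 and 114 CPM in homozygous pre-B cells, against 66.6, 70.5 and 70.7 CPM in homozygous pre-pro B cells. It was at 76.4, 87.1 and 87.0 CPM in WT pre-B and 69.3, 67.6 and 69.1 CPM in WT pre-pro B cells. Every pre-B library was above every pre-pro B library of its genotype, and the log2 difference was 0.54 ± 0.09 in homozygous, 0.25 ± 0.09 in heterozygous and 0.28 ± 0.09 in WT cells (SE; edgeR adjusted p = 6.86e-05, 0.0229 and 0.014). Ndufb8 differed by 0.42 ± 0.09, 0.31 ± 0.09 and 0.33 ± 0.09 on the log2 scale in homozygous, heterozygous and WT cells, and Ndufa11 by 0.32 ± 0.11, 0.41 ± 0.10 and 0.34 ± 0.10.

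Cox6b1 encodes a subunit of complex IV that faces the intermembrane space and joins its dimers. It was at 54.5, 56.8 and 66.7 CPM in homozygous pre-B cells, against 41.7, 41.7 and 41.6 CPM in homozygous pre-pro B cells. In WT cells it was at 51.8, 58.9 and 59.6 CPM in pre-B and 49.9, 46.9 and 45.2 CPM in pre-pro B libraries. The groups did not overlap, with a log2 difference of 0.49 ± 0.11 in homozygous, 0.37 ± 0.11 in heterozygous and 0.26 ± 0.11 in WT cells (SE; edgeR adjusted p = 0.000864, 0.00617 and 0.0453). The WT call of Cox6b1 was lost in 11 of 15 alternatives.

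Ndufs7 and Ndufv3 were lower in pre-B cells of all 3 genotypes, out of 8 genes that were lower in any. Ndufs7 is the core subunit of complex I that carries its last iron-sulfur cluster, next to the quinone. It was at 41.2, 44.9 and 42.1 CPM in homozygous pre-B cells, against 55.1, 55.7 and 51.8 CPM in homozygous pre-pro B cells. WT cells had 41.1, 44.1 and 47.1 CPM in pre-B and 62.1, 58.8 and 60.1 CPM in pre-pro B libraries. The stages were apart in each genotype, and the log2 difference was -0.34 ± 0.08 in homozygous, -0.27 ± 0.08 in heterozygous and -0.45 ± 0.08 in WT cells (SE; edgeR adjusted p = 0.00185, 0.00962 and 0.000121).

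Ndufv3 is an accessory subunit of the NADH-binding arm. It was at 47.6, 46.0 and 43.3 CPM in homozygous pre-B and 57.4, 55.3 and 55.9 CPM in homozygous pre-pro B libraries. In WT cells the values were 41.2, 47.3 and 48.3 CPM in pre-B and 58.2, 57.4 and 62.3 CPM in pre-pro B libraries. All 3 pre-B values were below all 3 pre-pro B values in each genotype, with log2 differences of -0.29 ± 0.09, -0.23 ± 0.09 and -0.38 ± 0.09 in homozygous, heterozygous and WT cells. The calls of Ndufs7 and Ndufv3 in homozygous and WT cells held in all 15 alternatives each.

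Complex I thus held genes of both directions. Of its 7 core genes, Ndufs1 and Ndufv2 were higher and Ndufs7 lower in homozygous pre-B cells. Ndufv2, a core subunit with an iron-sulfur cluster, differed by 0.61 ± 0.11 in homozygous and 0.31 ± 0.11 in heterozygous cells (SE; edgeR adjusted p = 9.01e-05 and 0.0176). In WT cells Ndufv2 did not pass the test, at 0.24 on the log2 scale. Of 28 accessory genes tested, 6 were higher and 1 lower in homozygous cells, 7 and 1 in heterozygous cells, and 5 and 3 in WT cells. Ndufb4, an accessory subunit, differed by 1.07 ± 0.27 in heterozygous and 0.70 ± 0.29 in WT cells (SE; edgeR adjusted p = 0.00209 and 0.0426), and its WT call was lost in 9 of 15 alternatives. Its level was low, with means of 5.26 CPM in pre-B and 2.44 CPM in pre-pro B heterozygous cells. The WT means were 3.76 and 2.29 CPM. Ndufab1, the mitochondrial acyl carrier protein that is also a subunit, differed by 0.69 ± 0.19 in WT cells (edgeR adjusted p = 0.00367). Ndufa1 (-0.44 ± 0.13) and Ndufa13 (-0.34 ± 0.10) were lower in WT pre-B cells. Ndufs4 differed by 0.46 ± 0.11 and Ndufc1 by 0.60 ± 0.24 in heterozygous cells, and Ndufa12 by 0.39 ± 0.15 in homozygous cells. Of these, Ndufc1 was lost in 5 and Ndufa12 in 7 of 15 alternatives.

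Among the 7 assembly factors of complex I, Ndufaf1 and Ndufaf2 were higher and Ndufaf3 lower in homozygous pre-B cells, with log2 differences of 0.37 ± 0.13, 0.68 ± 0.21 and -0.37 ± 0.13. Ndufaf1 was also higher in heterozygous cells, at 0.41 ± 0.13, and none of the 7 passed the test in WT cells. All 3 homozygous calls were lost with library size as a term (edgeR adjusted p = 0.0755 for Ndufaf1, 0.261 for Ndufaf2 and 0.0689 for Ndufaf3). Of the complex II genes only Sdha was called, and only in WT cells. The 4 Sdh genes, which encode the flavoprotein, the iron-sulfur protein and the pair of membrane anchors of succinate dehydrogenase, had log2 differences of -0.08 to 0.10 in homozygous, -0.15 to 0.04 in heterozygous and -0.22 to 0.04 in WT cells. Sdha, the flavoprotein, was lower in WT pre-B cells, at 229 ± 12.3 CPM against 267 ± 11.6 CPM in WT pre-pro B cells (SD, n = 3 each; log2 difference -0.22 ± 0.09, edgeR adjusted p = 0.0423). That call was lost in 8 of 15 alternatives.

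Complex III had 2 genes higher and none lower of 8 in homozygous cells, where Uqcrc2, a core protein of the complex, differed by 0.39 ± 0.11 and Uqcrh, the hinge protein, by 0.47 ± 0.18 (SE; edgeR adjusted p = 0.00456 and 0.0287). Uqcrc2 was also higher in heterozygous cells, at 0.31 ± 0.11. Uqcr11, a small subunit, was lower in heterozygous (-0.53 ± 0.19) and WT (-0.49 ± 0.18) pre-B cells and at -0.44 in homozygous cells, where it did not pass the test. The homozygous call of Uqcrh was lost in 6 of 15 alternatives and, with library size as a term, it was at -0.05 and Uqcrc2 at 0.12 (edgeR adjusted p = 0.655 and 0.204). The WT call of Uqcr11 was lost in 7 of 15 alternatives.

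Of the 6 classes, complex IV had the most calls in homozygous cells, and the core and accessory subunits of complex I had as many between them. There 9 of its 14 tested genes were higher and 1 lower in pre-B cells, with a median log2 difference of 0.45, beside 2 and 0 in heterozygous cells (median 0.21) and 3 and 0 in WT cells (median 0.04). Ndufa4 differed by 0.81 ± 0.24, Cox6c by 0.53 ± 0.22 and Cox7a2 by 0.50 ± 0.16 in homozygous cells (SE; edgeR adjusted p = 0.00557, 0.0366 and 0.00976). Cox5b, Cox6a1, Cox7a2l, Cox7b and Cox8a were also higher, by 0.42 to 0.49 on the log2 scale, and Cox4i1, the regulatory subunit 4 isoform of most tissues, was at 0.39 ± 0.17 without passing (edgeR adjusted p = 0.0573). With library size as a term Ndufa4 was at 0.09, Cox7a2 at 0.10, Cox7a2l at 0.16, Cox8a at 0.08, Cox6a1 at 0.02 and Cox6c at -0.09 (edgeR adjusted p = 0.489, 0.467, 0.187, 0.529, 0.887 and 0.534). Without homozygous pre-B replicate 3 the count in homozygous cells was 5 higher and 1 lower with a median of 0.27. With library size as a term it was 1 higher and none lower with a median of 0.08. Over all genes 31.6% were higher and 35.6% lower without that replicate, and 29.3% and 32.7% with library size.

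The level of Ndufa4 shows how far that library weighed. It was 43.8, 46.2 and 100 CPM in the homozygous pre-B libraries, against 35.8, 33.5 and 32.2 CPM in the homozygous pre-pro B libraries. All 3 pre-B values were higher, and replicate 3 had more than the other two together. Cox4i1, at -0.11 ± 0.17 in heterozygous and -0.25 ± 0.17 in WT cells without passing, had 95, 97.9 and 166 CPM in homozygous pre-B cells, against 89.4, 89.7 and 87.0 CPM in homozygous pre-pro B cells. Cox7a1, the heart and skeletal muscle isoform, had at most 16 counts in a library, and differed by 1.54 ± 0.54 in WT cells (edgeR adjusted p = 0.0187), 0.03 ± 0.52 in heterozygous and 0.21 ± 0.58 in homozygous cells.

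**Figure D3:**
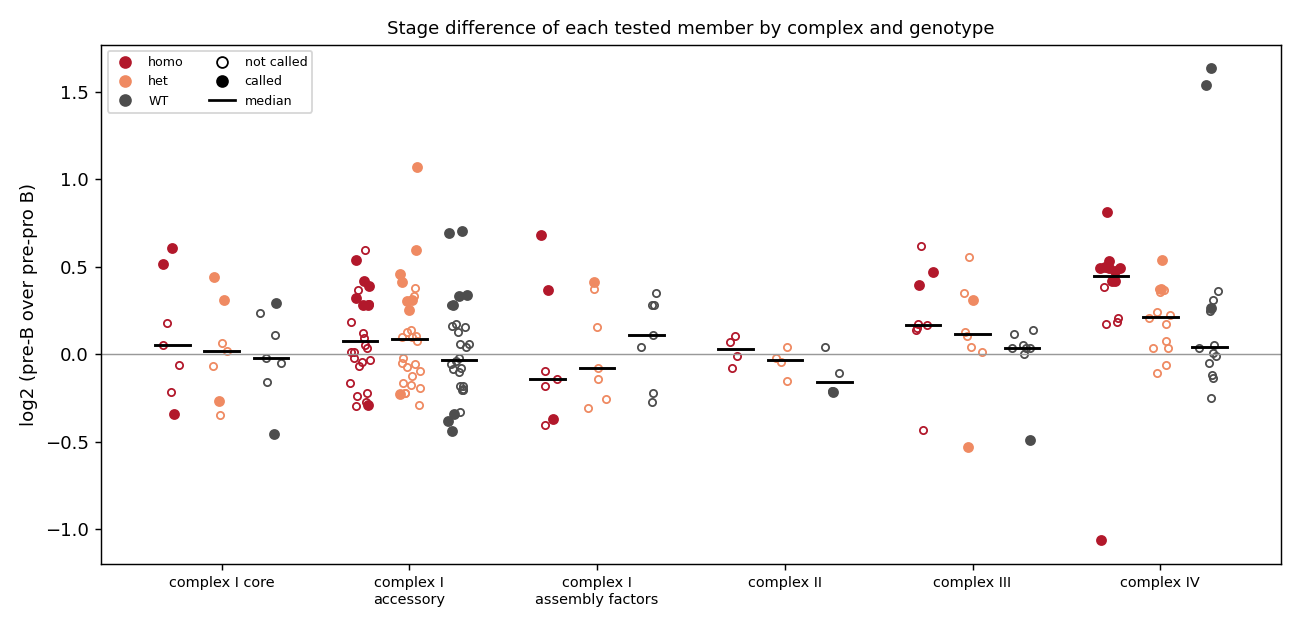
Log2 difference of each of the 68 tested genes between pre-B and pre-pro B cells (vertical axis) by complex (horizontal axis) and genotype (colours). Filled points have adjusted p under 0.05 by edgeR, and a line marks each median. Most complex IV points lie above 0 in homozygous cells (median 0.45) and around 0 in WT cells (median 0.04). Cox6b2 lies at -1.06 in homozygous and 1.63 in WT cells.

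Cox6b2 was the gene whose stage difference turned round between genotypes. It encodes the testis isoform of the subunit that Cox6b1 encodes elsewhere, and its locus is chr7:4751792-4753094 on the minus strand (GRCm38). The 250 bases before its RefSeq start (GRCm38.p6, chr7:4753095-4753344, minus strand) are shown because this gene gave the largest homozygous-to-WT difference of the 68 at each stage.
Cox6b2: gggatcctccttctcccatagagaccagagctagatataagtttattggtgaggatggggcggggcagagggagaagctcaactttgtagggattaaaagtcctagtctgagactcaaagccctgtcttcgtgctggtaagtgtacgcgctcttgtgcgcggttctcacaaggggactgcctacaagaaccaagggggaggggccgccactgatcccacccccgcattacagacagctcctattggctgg
None of the motifs described for the promoters further on was found in it.

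Cox6b2 fell in homozygous and rose in WT cells between the stages. Homozygous pre-B libraries had 2.38, 3.55 and 1.2 CPM, against 5.63, 5.08 and 6.32 CPM in homozygous pre-pro B libraries. WT pre-B libraries had 8.63, 6.81 and 6.77 CPM, against 3.38, 1.5 and 2.34 CPM in WT pre-pro B libraries. Neither pair overlapped, and they lay in opposite order. With library size as a term the homozygous call was lost, at -0.71 (edgeR adjusted p = 0.08), and the WT call was kept. The log2 difference was -1.06 ± 0.29 in homozygous cells, 0.04 ± 0.28 in heterozygous cells and 1.63 ± 0.28 in WT cells (SE; edgeR adjusted p = 0.00332, 0.93 and 5.89e-05). Raw counts were low, at 2 to 23 per homozygous pre-B library and 9 to 58 per library in the homozygous and WT pre-pro B and the WT pre-B groups.

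Heterozygous libraries had 3.27, 3.70 and 4.65 CPM of Cox6b2 in pre-B and 3.06, 4.44 and 3.65 CPM in pre-pro B cells. Among pre-B groups the 3 genotypes were in the order homozygous, heterozygous, WT, and in pre-pro B cells in the reverse order, with means of 5.67 ± 0.622, 3.72 ± 0.689 and 2.40 ± 0.943 CPM (SD, n = 3 each). Heterozygous and WT pre-pro B values overlapped, as did homozygous and heterozygous pre-B values.

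The genotype comparison in pre-B cells asked how the G158R allele changed these genes. There 3 of the 68 genes were lower and none higher in homozygous than in WT cells, beside 8.45% lower and 7.42% higher over all genes, and the median log2 difference was 0.05. Cox6b2 differed by -1.45 ± 0.30 (SE; edgeR adjusted p = 0.00888), a call that held in all 16 alternatives. Heterozygous cells were also lower, at -0.93 ± 0.27 without passing (edgeR adjusted p = 0.084).

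Ndufa3 and Ndufaf3 were the other two. Ndufa3, an accessory subunit of the membrane arm of complex I at chr7:3617347-3620165, had 20.4, 21.6 and 17.4 CPM in homozygous, 23.7, 23.4 and 23.7 CPM in heterozygous and 30.8, 28.8 and 34.8 CPM in WT pre-B libraries. All homozygous values were below all heterozygous values and those below all WT values. The homozygous-to-WT log2 difference was -0.64 ± 0.14 (SE; edgeR adjusted p = 0.0119) and held in 14 of 16 alternatives. Ndufaf3, which helps assemble the arm of complex I that holds the quinone site, lies at chr9:108565587-108567436. It had 20.1, 20.1 and 15.0 CPM in homozygous, 22.8, 28.1 and 27.6 CPM in heterozygous and 28.0, 28.7 and 28.0 CPM in WT pre-B libraries. The homozygous values lay below both other groups, with a log2 difference from WT of -0.58 ± 0.16 (SE; edgeR adjusted p = 0.0312) that was lost in 8 of 16 alternatives.

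**Figure D4:**
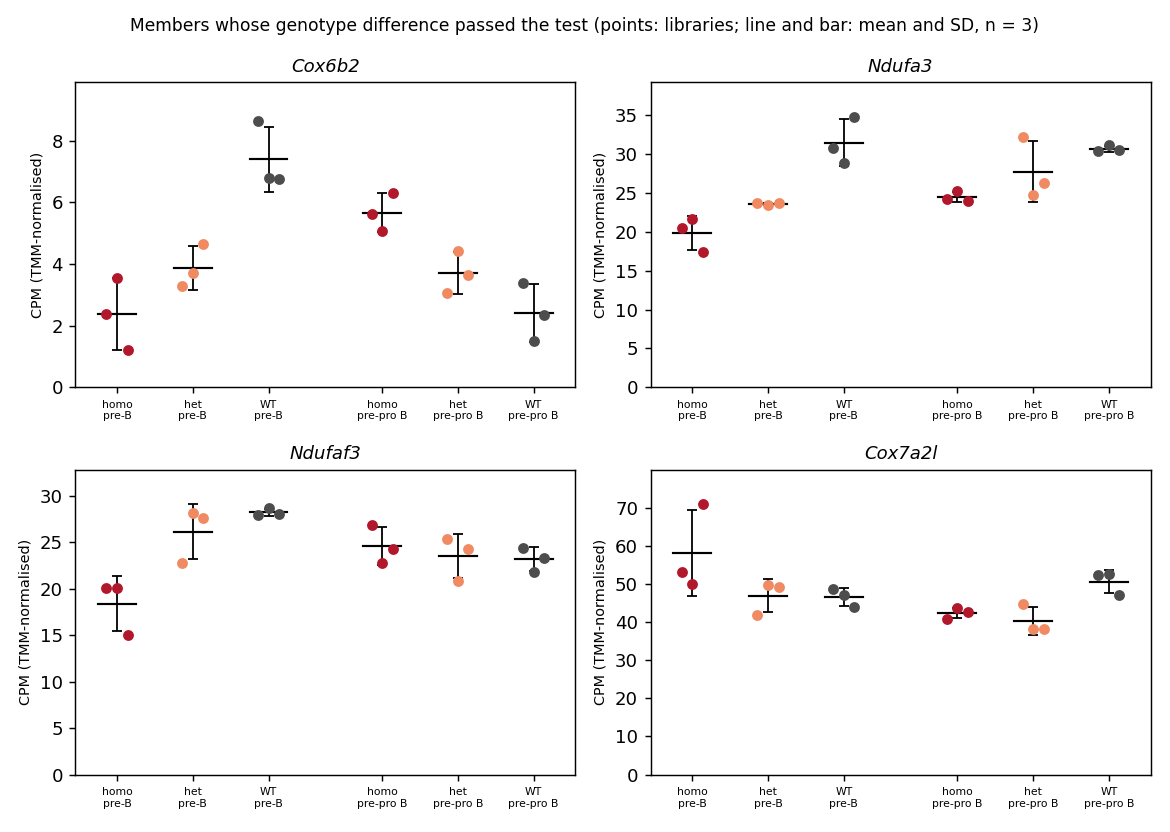
TMM-normalised CPM (vertical axis) of Cox6b2, Ndufa3, Ndufaf3 and Cox7a2l in every library by genotype and stage (horizontal axis), with the mean as a line and the SD as a bar (n = 3). Cox6b2 lies lowest in homozygous pre-B (2.38 CPM on average) and WT pre-pro B cells (2.40 CPM) and highest in WT pre-B cells (7.40 CPM), and homozygous pre-pro B cells have 5.67 CPM.

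In pre-B cells the 4 Sdh genes lay between 0.00 and 0.15 on the log2 scale in homozygous against WT cells, and none passed the test. The other isoform genes of complex IV did not pass either. Cox4i1 was at 0.29 ± 0.19, Ndufa4 at 0.41 ± 0.29 and Cox7a2l at 0.29 ± 0.15, while Cox6a1, Cox6b1, Cox7a2 and Cox8a lay between 0.05 and 0.17. Cox7a1 was at -1.07 ± 0.58. Proliferation markers summed to 3322 to 7383 CPM in homozygous and 3084 to 3356 CPM in WT pre-B libraries, and homozygous pre-B replicates 1 and 3 were XY where all WT ones were XX. Without homozygous replicate 3 and heterozygous replicate 2, 4 of the 68 genes passed, beside 29.9% of all genes. No gene of the 68 passed in heterozygous against WT pre-B cells, where 6.18% of all genes did, and at an unadjusted p under 0.05 there was 1 higher and 2 lower, while DESeq2 called 0. With library size as a term 3 passed (26.3% of all genes), and 2 did in a fit of all 18 libraries (12.7%) or without the 2 shallowest pre-B libraries (14.8%). In homozygous against heterozygous pre-B cells none of the 68 passed, beside 1.89% of all genes, with 0 higher and 1 lower at an unadjusted p under 0.05 and 0 called by DESeq2.

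In pre-pro B cells 6 of the 68 genes were lower and 1 higher in homozygous than in WT cells, beside 10.4% lower and 12% higher over all genes. The median log2 difference was -0.12, beside 0.01 for all genes. With library size as a term the median was 0.012. The gene that was higher was Cox6b2, at 1.24 ± 0.27 (SE; edgeR adjusted p = 0.00943). The lower ones came from all 4 complexes, among them Ndufa3, Ndufa13, Sdha, Uqcrc2 and Cox7a2l.

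Ndufa3 had 24.2, 25.3 and 24.0 CPM in homozygous, against 30.4, 31.1 and 30.5 CPM in WT pre-pro B libraries, a log2 difference of -0.34 ± 0.10 (SE; edgeR adjusted p = 0.0329). The 3 homozygous values lay below the 3 WT values, as at the pre-B stage. Cox7a2l (chr17:83501917-83514333) had 40.9, 43.5 and 42.6 CPM in homozygous, against 52.2, 52.6 and 47.0 CPM in WT pre-pro B libraries, a log2 difference of -0.27 ± 0.08 (edgeR adjusted p = 0.0366). Heterozygous cells had 44.6, 38.1 and 38.2 CPM of it. Ndufa13 differed by -0.33 ± 0.10, Sdha by -0.21 ± 0.06 and Uqcrc2 by -0.19 ± 0.06, with edgeR adjusted p from 0.0328 to 0.0388. The calls of Ndufa3, Sdha and Uqcrc2 were lost in 10 of 15 alternatives each, and those of Cox7a2l and Ndufa13 in 9. No gene of the 68 passed with library size or sex as a term, Cox6b2 included (edgeR adjusted p = 0.169 and 0.0812). Over all genes 1.75% passed with library size and 4.96% with sex as a term. With 1 homozygous or WT library left out, 1 to 2 of the 68 passed. Of all genes 6.23% to 9.92% were then higher and 2.78% to 7.06% lower.

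Depth and sex moved with genotype in these libraries. By Xist and Y-linked counts, homozygous pre-pro B replicates 1 and 3 were XY and all WT pre-pro B libraries XX. Markers of other cells moved as well. All 8 natural killer and innate lymphoid markers had counts, summing to 144 to 258 CPM in homozygous, 85.7 to 173 CPM in heterozygous and 19.0 to 26.9 CPM in WT pre-pro B libraries. All 8 myeloid markers had counts too, summing to 111 to 167 CPM in homozygous, 32.2 to 81.4 CPM in heterozygous and 13.8 to 24.6 CPM in WT libraries. Plasmacytoid dendritic cell markers summed to 3516 to 3712 CPM in homozygous and 4558 to 5207 CPM in WT libraries, and T lineage markers to 433 to 482 CPM in homozygous and 613 to 700 CPM in WT libraries. The proliferation markers summed to 1513 to 1574 CPM in homozygous and 548 to 1114 CPM in WT libraries. The listed globin genes, which mark erythroid cells, were at 0 in the libraries of both stages, so these zeros cannot tell the groups apart. The part of these differences in the lower respiratory chain levels was not tested.

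Of the isoform genes that did not pass in homozygous against WT pre-pro B cells, Cox4i1 was at -0.37 ± 0.14, Cox6a1 at -0.31 ± 0.12, Cox8a at -0.30 ± 0.12, Cox6b1 and Ndufa4 at -0.19, Cox7a2 at -0.12 and Cox7a1 at 0.25. Sdhb was at -0.15, Sdhc at -0.05 and Sdhd at 0.05. In heterozygous against WT pre-pro B cells none of the 68 passed, beside 0.558% of all genes. At an unadjusted p under 0.05, 1 was higher and 8 lower, and DESeq2 called 0. Sdha was at -0.13, Cox4i1 at -0.17, Cox6b2 at 0.67 ± 0.29 and Cox7a2l at -0.35 ± 0.08 (edgeR adjusted p = 0.067 for Cox7a2l). Without heterozygous replicate 1, the shallowest of its group, 17 of the 68 (25%) were lower and none higher by edgeR, beside 9.44% lower and 5.96% higher over all genes. In homozygous against heterozygous pre-pro B cells none of the 68 passed, beside 0.0164% of all genes, with 1 higher and 0 lower at an unadjusted p under 0.05 and 0 called by DESeq2.

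Whether the effect of genotype itself differed between stages was tested as an interaction. For homozygous against WT, 3 of the 68 genes passed (1 positive, 2 negative), beside 14.5% of all genes, and the median was 0.13 beside -0.04 for all genes. For heterozygous against WT, 1 of the 68 passed, beside 5.65% of all genes. Cox6b2 was the only gene of the 68 that passed in both, at -2.70 ± 0.40 for homozygous and -1.60 ± 0.39 for heterozygous cells (SE; edgeR adjusted p = 0.00016 and 0.0223). The homozygous call held in all 21 alternatives and the heterozygous call was lost in 5 of 21. Ndufaf3 was at -0.65 ± 0.18 (edgeR adjusted p = 0.0184, lost in 4 of 21), with 24.6 ± 2.05 CPM in homozygous and 23.2 ± 1.31 CPM in WT pre-pro B cells (SD, n = 3 each). Cox7a2l was at 0.54 ± 0.17 (edgeR adjusted p = 0.04, lost in 13 of 21).

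Other genes of mitochondrial metabolism were read from lists, beside 32.7% higher and 36.4% lower over all genes in homozygous, 32.4% and 35.8% in heterozygous, and 31% and 33.3% in WT cells. Of 17 ATP synthase genes tested, 8 were higher and none lower in homozygous pre-B than pre-pro B cells, 0 and 2 in heterozygous cells, and 1 and 2 in WT cells. These and the following list counts come from the main fit only. They were not repeated without homozygous pre-B replicate 3 or with library size as a term. Atp5b, the catalytic beta subunit, differed by 0.63 ± 0.17 in homozygous cells. Of 15 citric acid cycle genes, 11 were higher and 1 lower in homozygous, 11 and 2 in heterozygous, and 7 and 1 in WT cells. Idh3g, a regulatory subunit of isocitrate dehydrogenase, differed by 0.79 ± 0.11, 0.66 ± 0.11 and 0.50 ± 0.11, and Pdha1, of pyruvate dehydrogenase, by 0.59 ± 0.08, 0.55 ± 0.08 and 0.42 ± 0.08 in homozygous, heterozygous and WT cells. Of 76 mitochondrial ribosome genes, 25 were higher and 6 lower in homozygous, 25 and 6 in heterozygous, and 23 and 6 in WT cells, with Mrpl49 at 1.15 ± 0.09, 1.19 ± 0.09 and 1.44 ± 0.09. Of 14 glycolysis genes, 2 were higher and 7 lower in homozygous, 1 and 8 in heterozygous, and 1 and 9 in WT cells, with Aldoc lower by more than any other.

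The assembly genes were mixed in direction. Of 17 assembly genes of complex IV, 4 were higher and 4 lower in each of the 3 genotypes, with Cox19 higher (0.55 ± 0.12 in homozygous and 0.48 ± 0.12 in WT cells) and Cox14 lower (-1.40 ± 0.23 in homozygous and -1.09 ± 0.21 in WT cells). Of 12 partners and assembly genes of complexes II and III, 1 was higher and 3 lower in homozygous, 2 and 3 in heterozygous, and 2 and 2 in WT cells. Sdhaf2, which helps add the flavin to Sdha, was higher by 1.12 ± 0.11, 1.27 ± 0.11 and 1.18 ± 0.11 in homozygous, heterozygous and WT cells. Of 7 complex I assembly genes with other names, 2 were higher and 3 lower in homozygous cells and 1 and 4 in both others, with Ecsit higher and Nubpl and Tmem70 lower.

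Of 18 regulators of mitochondrial genes tested, 10 were higher and 3 lower in homozygous pre-B than pre-pro B cells, 7 and 2 in heterozygous, and 8 and 3 in WT cells. These were 72.2%, 50% and 61.1% of the list, beside 69.1%, 68.1% and 64.3% of all genes in homozygous, heterozygous and WT cells. Gabpb1, which encodes the beta subunit of GABP, was higher by 1.80 ± 0.14 in homozygous, 1.56 ± 0.14 in heterozygous and 1.48 ± 0.14 in WT cells. Nrf1 was higher by 0.45 ± 0.11, 0.56 ± 0.11 and 0.82 ± 0.11, Tfam, the mitochondrial transcription factor, by 0.66 ± 0.14, 0.69 ± 0.14 and 0.51 ± 0.14, and Gabpa, Gabpb2, Mycn and Polg were also higher in all 3. Ppargc1b, which encodes a coactivator of mitochondrial genes, and Tefm, a mitochondrial elongation factor, were lower in all 3, with Ppargc1b at -2.60 ± 0.31, -2.44 ± 0.31 and -1.87 ± 0.29. Tfb1m, Yy1 and Ppargc1a were higher and Esrra lower in homozygous cells, and in WT cells Myc was higher and Hif1a lower.

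Between genotypes, calls in the lists were set beside those over all genes. In homozygous against WT cells, 22.4% of all genes passed in pre-pro B cells (12% higher, 10.4% lower). In pre-B cells 15.9% did (7.42% higher, 8.45% lower). With library size as a term the pre-pro B shares were 0.812% higher and 0.935% lower, and with sex 3.61% and 1.35%. The list genes were read from the main fit only. In homozygous against WT pre-pro B cells, 3 of 17 ATP synthase genes were lower, among them Atp5e (-0.41 ± 0.13) and Atp5c1 (-0.26 ± 0.09). Among 18 regulators 6 passed (33.3%): Gabpb1 (0.29 ± 0.07), Myc (1.2 ± 0.31), Nrf1 (0.28 ± 0.08), Polg (0.39 ± 0.07) and Pprc1 (0.21 ± 0.06) were higher and Hif1a (-0.23 ± 0.05) lower. Cox14, Cox17 and Dlst were lower as well, and 4 of 14 glycolysis genes passed (28.6%), of which Tpi1 and Pfkm were higher and Gpi1 and Aldoa lower. In homozygous against WT pre-B cells Acad9 (0.65 ± 0.11), Gabpb1 (0.63 ± 0.18) and Ppargc1a (1.30 ± 0.36) were higher, and Mrps25 (-0.58 ± 0.14) and Hk1 (-1.46 ± 0.26) lower. No other gene of the lists passed there. In heterozygous against WT pre-B cells 2 of 14 glycolysis genes, Hk1 and Pfkm, were lower, beside 3.38% of all genes, and no gene of the other lists passed.

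The Ikaros and Aiolos region lists were read at the start sites of 60 of the 74 genes that had a promoter in the RefSeq table, beside 17381 genes with one. A gene was counted when a region overlapped the 1 kb on either side of a start by at least 1 base. In cultured pre-B cells the homozygous Ikaros list had a region at 3 of 60 (5%, exact 95% binomial interval 1.04% to 13.9%), beside 5.86% of all genes, and the WT list at 1 of 60 (1.67%, 0.0422% to 8.94%), beside 1.72%. In thymocytes the homozygous list had 12 of 60 (20%, 10.8% to 32.3%), beside 18.9% of all genes, and the WT list 1 of 60 (1.67%, 0.0422% to 8.94%), beside 3.69%. The members' shares lay near those of all genes, and the homozygous lists were longer, with 8609 against 3683 regions in cultured pre-B cells and 8221 against 3572 in thymocytes. With 1 library a group there is no test, and intervals cover counting error only.

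No Aiolos region lay at any of the 60 starts in any of the 4 lists, beside 0.121% of all genes. Those lists held 24 homozygous and 431 WT regions in cultured pre-B cells, and 184 homozygous and 25 WT regions in thymocytes, so few of any kind could have been found.

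**Figure D5:**
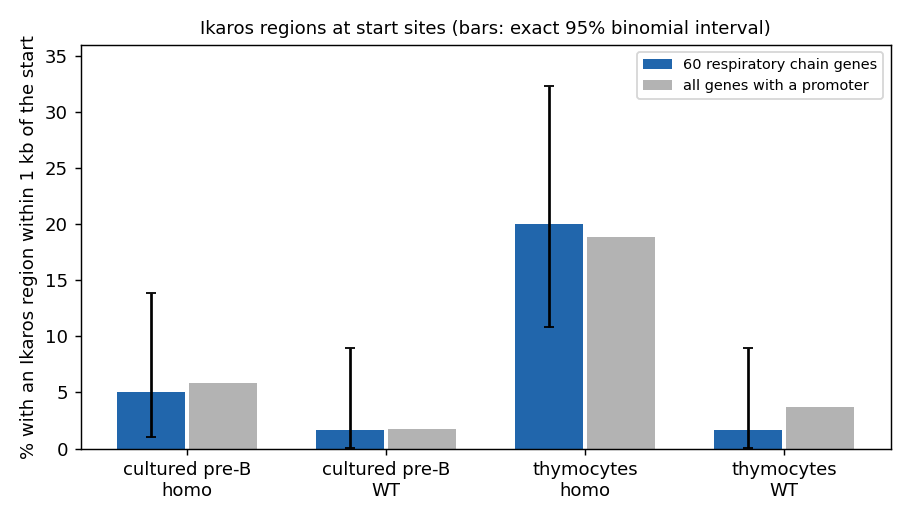
Percent of the 60 respiratory chain genes and of all 17381 genes with an Ikaros region within 1 kb of a start site (vertical axis), by cell type and genotype (horizontal axis), with exact 95% binomial intervals on the respiratory chain bars. The respiratory chain bars reach 20% in homozygous thymocytes and 1.67% in WT thymocytes, near the 18.9% and 3.69% of all genes.

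Ndufs5 was the only one of the 60 with a region in all 4 Ikaros lists. By the authors' deposited values, its fold enrichment was 9.57 in homozygous and 9.45 in WT cultured pre-B cells and 3.93 in homozygous and 3.95 in WT thymocytes. Ndufs8, a core subunit of complex I, and Ndufaf3 had a region in both homozygous lists and in neither WT list, with a fold of 4.44 and 3.06 in cultured pre-B cells. The Ndufaf3 region there was weak, at a −log10 q of 1.46, and that of Ndufs8 was at 4.85. Of the genes that differed between genotypes, Ndufa3 had a region in the homozygous thymocyte list, with a fold of 4.12 and a −log10 q of 3.70. Cox6b2 had none within 1 kb: the nearest Ikaros region lay 13.3 kb from it in both homozygous lists, 171.3 kb in WT cultured pre-B cells and 228.2 kb in WT thymocytes.

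The 250 bases before the RefSeq starts of Ndufs8 (GRCm38.p6, chr19:3912775-3913024, minus strand) and Ndufa3 (chr7:3617123-3617372, plus strand) are shown because an Ikaros region of a homozygous list covers most of each. Capitals mark the bases inside the homozygous cultured pre-B region for Ndufs8 and inside the homozygous thymocyte region for Ndufa3.
Ndufs8: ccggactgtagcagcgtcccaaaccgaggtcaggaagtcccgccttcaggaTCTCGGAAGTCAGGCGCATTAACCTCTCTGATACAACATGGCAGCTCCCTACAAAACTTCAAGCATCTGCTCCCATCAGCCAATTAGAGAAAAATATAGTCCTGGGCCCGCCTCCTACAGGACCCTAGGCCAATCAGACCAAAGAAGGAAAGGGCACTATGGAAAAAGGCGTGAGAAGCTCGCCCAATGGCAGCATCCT
Ndufa3: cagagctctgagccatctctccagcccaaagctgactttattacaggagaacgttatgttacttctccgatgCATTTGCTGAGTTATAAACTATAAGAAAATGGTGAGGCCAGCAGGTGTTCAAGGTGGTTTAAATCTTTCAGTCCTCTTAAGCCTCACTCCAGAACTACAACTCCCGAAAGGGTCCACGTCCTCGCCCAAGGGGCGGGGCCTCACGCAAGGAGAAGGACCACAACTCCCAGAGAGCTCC
The RNA of Ndufs8 was at 71.6 ± 4.27 CPM in homozygous and 77.2 ± 2.72 CPM in WT pre-B cells, and at 69.5 ± 1.42 CPM in homozygous and 71.6 ± 0.578 CPM in WT pre-pro B cells (SD, n = 3 each). It was called at neither stage. Ndufa3 was called lower in homozygous cells at both, and its pre-pro B call was lost in 10 of 15 alternatives. In the homozygous cultured pre-B list the nearest Ikaros region lay 312.1 kb from Ndufa3. Whether binding bears on its RNA was not tested.

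Motif letters were searched on both strands of the 300 bases around the starts, 250 before and 50 after. The NRF1 letters GCGCATGC were in 9 of 60 promoters (15%), beside 4% of 17381. The ETS letters CCGGAAG were in 12 (20%), beside 12.7%, and the YY1 letters AAGATGG in 8 (13.3%), beside 7.33%. The Ikaros core letters TGGGAA were in 9 (15%), beside 27.1%. At least 1 of the NRF1, ETS and YY1 letters was in 26 of the 60, and 34 had none of the 3. A match is a description of these letters and not of a bound site.

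Cox6a1, Sdhb and Uqcr11 held both the NRF1 and the ETS letters. The promoters of Cox6a1 (GRCm38.p6, chr5:115348959-115349208, minus strand), which encodes the subunit 6A isoform of most tissues, and of Ndufa11 (chr17:56717512-56717761, plus strand), which was higher in pre-B cells of all 3 genotypes, are shown for these letters. Capitals mark NRF1 matches, which overlap on both strands, and in Cox6a1 also an ETS match that lies on the other strand.
Cox6a1: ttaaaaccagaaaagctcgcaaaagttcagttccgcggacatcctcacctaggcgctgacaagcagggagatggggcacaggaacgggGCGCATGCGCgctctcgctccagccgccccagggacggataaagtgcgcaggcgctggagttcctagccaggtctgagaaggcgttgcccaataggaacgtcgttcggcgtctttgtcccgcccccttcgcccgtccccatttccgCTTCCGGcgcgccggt
Ndufa11: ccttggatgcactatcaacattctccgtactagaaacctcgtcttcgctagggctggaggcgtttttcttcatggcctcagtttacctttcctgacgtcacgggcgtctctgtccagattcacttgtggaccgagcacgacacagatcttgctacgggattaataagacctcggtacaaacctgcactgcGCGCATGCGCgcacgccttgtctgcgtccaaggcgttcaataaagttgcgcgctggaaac
Cox6a1 had a log2 difference between the stages of 0.42 ± 0.15 in homozygous, 0.18 ± 0.15 in heterozygous and 0.05 ± 0.15 in WT cells (SE; edgeR adjusted p = 0.0205, 0.305 and 0.777), and Uqcr11, with the same letters, had values of the opposite sign.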

How the data were processed

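RNA-seq of 18 libraries of sorted mouse bone marrow cells and 8 ChIP region lists were read. The deposited RNA files hold raw read counts per gene symbol, and per the labels' protocols the RNA was poly(A)-selected and made into libraries with NEBNext Ultra. Per the submitters' processing notes, the build was mm10 and the tools were MACS2 2.1.1, HISAT2 2.1.0 and STAR 2.7.0. Their roles are not given in the sources used here. The deposited region lists give each region's fold enrichment (a ratio) and its −log10 q, which are the authors' values. Reads assigned to no gene (29.8% to 40.1% of a file's total) or to more than 1 (0.73% to 0.882%) were left out of library sizes.

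Genes passing filterByExpr were normalised by TMM and tested with edgeR 4.0.16 (R 4.3.3; quasi-likelihood, robust), with Benjamini-Hochberg adjustment over all 12188 (pre-pro B), 11411 (pre-B) or 12440 genes (18 libraries) and a threshold of 0.05. Genotypes were compared among the 9 libraries of a stage, and stages and interactions in all 18. The scripts were tested on simulated data. Within a group no pair of libraries was a duplicate (chi-square per degree of freedom 1.44 to 20.2). RefSeq (GRCm38.p6) gave positions and promoters. Alternatives used limma 3.58.1, DESeq2 1.42.0, other filters and terms, and leaving out libraries. The named genes were the 3 largest calls per complex, direction and comparison, the Sdh genes, the isoform genes, and the 2 largest calls of each pathway list with all regulators called; some of these are not reported here. The genes and lists were chosen with earlier results of these data known.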

Additional observations from a re-analysis of the deposited data

Results flagged for a closer look

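In 4 results the effect of genotype differed between pre-B and pre-pro B cells by the interaction test of edgeR. For Cox6b2 the homozygous effect in pre-B cells minus that in pre-pro B cells was -2.70 ± 0.40 on the log2 scale (SE; adjusted p = 0.00016), and the heterozygous one -1.60 ± 0.39 (adjusted p = 0.0223). For Ndufaf3 the homozygous difference was -0.65 ± 0.18 (adjusted p = 0.0184). For Cox7a2l it was 0.54 ± 0.17 (adjusted p = 0.04). All 3 homozygous values of Cox6b2 lay below the WT values in pre-B cells and above them in pre-pro B cells, and these libraries had 2 to 58 counts of it.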

How the results depend on the processing

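For homozygous against WT pre-pro B cells the 7 calls became 4 with DESeq2, 0 with library size or sex as a term, and 1 in a single fit of 18 libraries. Over all genes, DESeq2 called 10.4% higher and 9.62% lower, and the single fit 7.02% and 2.19%. The shares were 0.812% and 0.935% with library size and 3.61% and 1.35% with sex, beside 12% and 10.4% in the main fit. For pre-B cells the 3 calls became 1 with a replicate block and 5 in the single fit. Over all genes 4.36% were higher and 5.5% lower with the block, and 11.4% and 12.2% in the single fit. Heterozygous against WT pre-B cells went past the threshold for 3 genes with library size as a term, and for 2 in the single fit or without the 2 shallowest pre-B libraries. Of all genes 13.2% were higher and 13.1% lower with library size. The shares were 5.9% and 6.83% in the single fit, and 7.09% and 7.76% without those libraries. Stage calls were 13 (library size) in homozygous cells, and 24 (library size) and 25 (without those 2) in WT cells. Over all genes 29.3% were higher and 32.7% lower in homozygous cells with library size. In WT cells the shares were 35.2% and 36.3% with library size and 37.2% and 36.7% without those 2. With the replicate number nested in genotype as a block, interaction calls were 1 for homozygous and 0 for heterozygous cells. Of all genes 3.58% were positive and 7.32% negative for homozygous, and 1.05% and 2.12% for heterozygous cells. The plain replicate block gave 9 calls in homozygous against WT pre-pro B cells and 23, 15 and 12 stage calls in homozygous, heterozygous and WT cells. With it, 11.5% of all genes were higher and 11% lower in that genotype comparison. The stage shares were 31.9% and 35.6% in homozygous, 31.5% and 35% in heterozygous, and 30.2% and 32.7% in WT cells. In no comparison did every same-numbered pair correlate over 0.1, so these libraries were treated as sharing only a number. In the WT stage comparison, however, all 3 correlated best with their own number. By Xist and Y-linked counts, same-numbered libraries of a genotype also had the same sex at both stages. Homozygous replicates 1 and 3 and heterozygous replicate 2 were XY and the others XX. The stages may thus share animals, and the main stage and interaction tests do not use such a pairing. The nested block, the fit without the 2 shallowest pre-B libraries and the library size term with 18 libraries were chosen after seeing the data.

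The median log2 difference of the members was -0.17 (cyclic loess) and 0.012 (library size) for homozygous against WT pre-pro B cells, and -0.015 for pre-B cells without the 2 shallowest libraries. Between stages it was 0.034 (library size) in homozygous cells and -0.0047 (relative log expression) and -0.0046 (DESeq2) in WT cells, and the homozygous interaction 0.21 (loess) and 0.042 (library size). With library size as a term the stage differences of Uqcrh and Cox6c in homozygous cells reversed, to -0.054 and -0.090. Leaving out 1 library of a compared group gave 1 to 2 (homozygous) and 0 to 17 (heterozygous) calls against WT in pre-pro B cells. All-gene shares were 6.23% to 9.92% higher and 2.78% to 7.06% lower, and 0% to 5.96% and 0% to 9.44%. In pre-B cells there were 1 to 3 and 0 calls. The shares there were 3.84% to 8.61% higher and 5.13% to 9.48% lower, and 1.19% to 3.18% and 1.68% to 3.34%. Stage calls were 17 to 29, 12 to 21 and 9 to 14 in homozygous, heterozygous and WT cells. Over all genes and genotypes 27.8% to 32.2% were higher and 30.5% to 36.6% lower. Interaction calls were 1 to 5 and 0 to 1 in homozygous and heterozygous cells. Of all genes 3.65% to 6.3% were positive and 7.01% to 11.1% negative, and 1.15% to 2.51% and 2.42% to 4.44%. The 5 came without homozygous pre-B replicate 1, and the 17 without heterozygous pre-pro B replicate 1. Those fits moved the medians to between -0.16 and -0.10 (homozygous against WT pre-pro B), -0.14 and -0.03 (heterozygous), -0.01 and 0.08 (homozygous pre-B), -0.05 and 0.01 (heterozygous pre-B), -0.07 and 0.03 (homozygous against heterozygous pre-pro B), -0.02 and 0.08 (the same in pre-B), 0.12 and 0.15 (homozygous stage), 0.0012 and 0.14 (heterozygous stage), 0.0039 and 0.031 (WT stage), 0.09 and 0.17 (homozygous interaction) and 0.01 and 0.15 (heterozygous interaction). Of 123 gene and comparison pairs not called, 182 of 2009 alternative values had the other sign, 46 of them by more than 1 SE. At a −log10 q of at least 5, Ikaros regions lay at 5% of the starts in homozygous and 0% in WT thymocytes, beside 7.86% and 1.85% of all genes. In cultured pre-B cells they then lay at 1.67% of the starts in homozygous and in WT cells, beside 3.34% and 1.41% of all genes. The causes of these changes were not tested. Depth limits Cox6b2 and Cox7a1, which had few counts, and other genes at a few CPM, such as Ndufb4.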
